A study of Mus musculus with 8 samples.

Results

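Open chromatin was compared between induced and repressed cells of the DNSnf2h line, a mouse mammary epithelial 3134 line with a tetracycline-controlled, dominant-negative Snf2h. Hotspots, the regions enriched in DNase I cuts, were merged where those of the induced and the repressed list overlapped by at least 1 bp. The merging gave 41657 sites, of 99999 sites from all 8 lists of the study, and 40101 sites for the parental pair merged in the same way. The value of a site in a list was its highest tag density, called peak density here, in the authors' scaled units on build mm9.

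The induced DNSnf2h cells were plated for 48 hours without tetracycline, and the repressed DNSnf2h cells for 48 hours with it, both in medium with charcoal-dextran-treated serum. Both carried human SNF2H with a FLAG tag at its N-terminus and lysine 211 mutated to arginine, stably integrated from an inducible retroviral vector into 3134 cells with a tetracycline transactivator. The labels do not say whether the line is a single clone, and the level of the induced protein was not analysed here. A line with inducible mouse Chd4 (DNCHD4; triple FLAG tag, lysine 250 mutated to cysteine per the labels), a line with dominant-negative Brg1 (DNBrg1; its mutation is not stated in the labels) and the parental 3134 cells were each measured once without and once with tetracycline. All the tetracycline-regulated lines were maintained in 5 µg/ml tetracycline, which keeps the transgene off. With 1 library for each state of each line there is no spread between replicates, so differences are given as counts of sites and as ratios with counting intervals, without a test.

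Snf2h is the ATPase of mammalian ISWI complexes such as ACF, CHRAC, WICH and RSF. ISWI remodelers slide nucleosomes along DNA and set their spacing, and Snf2h is known for the phased nucleosomes beside CTCF-bound sites. The mutated lysine lies in the ATP-binding motif, so the protein can join its complexes without supplying remodeling activity. DNase I cuts mainly where nucleosomes are displaced, and a density of cuts at a site therefore reads how open it is across the cell population.

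The induced list held 33793 hotspots and the repressed list 24890. Their lowest peak densities were nearly equal, 8.06 in induced and 8.03 in repressed cells, or 40 and 43 sequenced tags. At the median hotspot the peak density was 11.3 in induced and 14.6 in repressed cells, which are 56 and 78 tags and carry counting errors of 13.4% and 11.3%. The induced list thus held more weak hotspots above much the same cutoff, and it covered 17.9 Mb of the genome, against 15.4 Mb in the repressed list. A hotspot absent from a list may still have had cuts below the cutoff of that list.

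Induced cells had fewer strong hotspots and more weak ones. Of hotspots with a peak density of 16 or more there were 10151 in induced and 11101 in repressed cells, a ratio of 0.914. At 64 or more the numbers were 889 in induced and 1032 in repressed cells, a ratio of 0.861. The order was opposite at the weak end, where densities from 8 to 10 were found in 12590 hotspots of induced and 5417 of repressed cells, a ratio of 2.32. The ratio of induced to repressed hotspots was 1.52 from 10 to 12, 1.14 from 12 to 16 and 0.932 from 16 to 24, so the lists crossed near a density of 16. In deposited densities the parental pair had the same order, with 6911 hotspots without and 9478 with tetracycline at 64 or more. The numbers were 6980 and 7951 from 16 to 24, and 6439 and 4778 from 12 to 16. Parental cutoffs differed more, at 10.0 without and 13.0 with tetracycline, so the latter list lacks part of the class from 12 to 16. Over sites listed in both libraries, the median log2 ratio without over with tetracycline was -0.40 in the parental and -0.02 in the DNSnf2h line. The parental counts are therefore not a like comparison.

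Sites at which peak density was 2-fold lower in induced cells outnumbered those at which it was 2-fold higher. Ratios were taken as induced over repressed and divided by their median over the shared sites, those found in both libraries, which was -0.02 on the log2 scale. For a site listed once, the missing value was replaced by the cutoff of the list that lacks it, that is its lowest density, so the ratio is a bound. By this measure 1846 of 41657 sites (4.43%) were 2-fold lower and 874 (2.10%) were 2-fold higher in induced cells. In parental cells, treated the same way, 926 of 40101 sites (2.31%) were 2-fold lower and 1043 (2.60%) were 2-fold higher without tetracycline. The higher sites were 32.1% of all changed sites in the DNSnf2h line (Wilson 95% interval 30.4 to 33.9, sites taken as independent draws). In the parental line they were 53.0% (50.8 to 55.2). These shares are over all sites, of which 68.5% in the DNSnf2h line and 42.4% in the parental line lay below the density that a 2-fold call needs in either library.

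Among the sites where a call could be made, both shares were above the parental ones, the lower share by more. A listed site could reach 2-fold lower by its bound only with a peak density of at least 16.3 in repressed cells, and 17.2% of the 10737 sites that dense were 2-fold lower in induced cells. The corresponding share in the parental line was 4.50% of 20588 sites. For the higher direction the shares were 8.52% of the 10261 DNSnf2h sites and 5.09% of the 20480 parental sites that were dense enough. Among sites listed in both libraries, 1055 of 16557 (6.37%) were 2-fold lower and 421 (2.54%) 2-fold higher in the DNSnf2h line, against 1.83% and 2.08% of 29355 in the parental line. The counting interval lay wholly beyond 2-fold at 297 of the lower and 42 of the higher sites listed in both DNSnf2h libraries. The spread of the log2 ratios across shared sites was wider in the DNSnf2h line, with an SD of 0.58, than in the parental line, with 0.46.

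**Figure D1:**
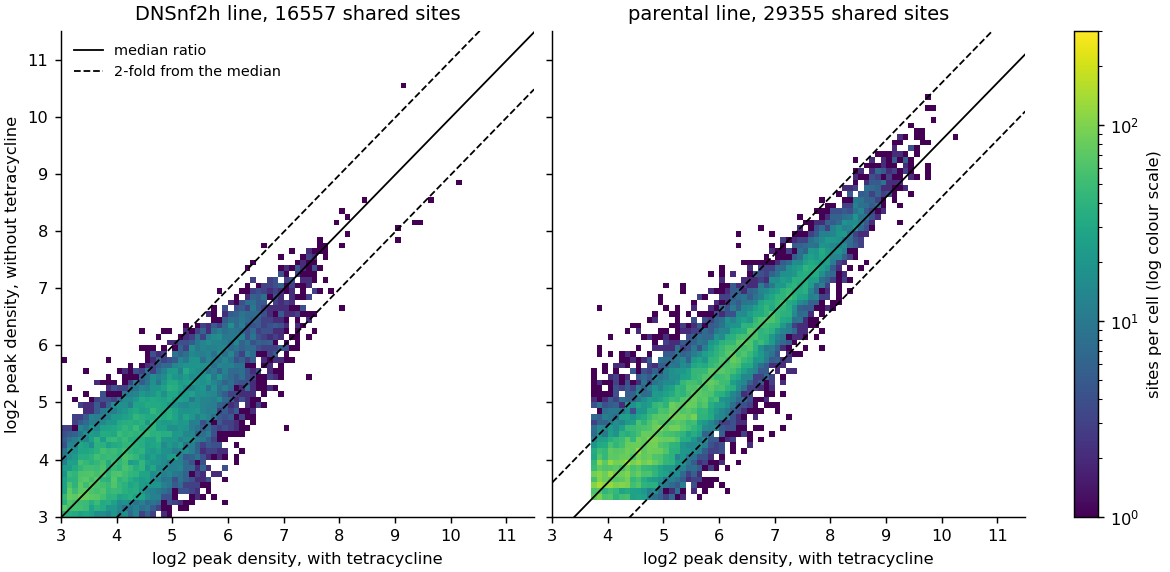
Log2 peak density without tetracycline (vertical) against with tetracycline (horizontal) for the sites listed in both libraries of the DNSnf2h line (left) and the parental line (right), with colour for the number of sites per cell on a log scale. The solid line is the median ratio and the dashed lines lie 2-fold from it. In the DNSnf2h line 1055 sites lie at or below the lower dashed line and 421 at or above the upper, against 536 and 611 in the parental line.

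The same order held along the genome. Lower sites outnumbered higher ones on all 20 chromosomes in the DNSnf2h line, and on 5 of 20 in the parental line. The share of sites 2-fold lower in induced DNSnf2h cells ran between 3.31% on chromosome X and 5.64% on chromosome 13. The share 2-fold higher ran between 1.18% on chromosome 13 and 3.32% on chromosome 16, so chromosome 13 had both the highest share of lower and the lowest share of higher sites.

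Many sites were listed in 1 of the 2 DNSnf2h libraries, and most of these were weak. Sites listed in both made up 39.7% (16557), those listed only in induced cells 40.8% (16989) and those listed only in repressed cells 19.5% (8111). The parental pair shared 73.2% of its sites, with 13.1% listed only without and 13.7% only with tetracycline. Sites listed only in induced DNSnf2h cells had a median peak density of 9.27 and a median width of 401 bp. Those listed only in repressed cells had medians of 10.3 and 477 bp, and shared sites had a median width of 705 bp and median densities of 18.3 in induced and 19.2 in repressed cells. The sites listed only in induced cells were also the most isolated, with no other site within 50 kb at 21.0% of them, against 9.79% of those listed only in repressed cells and 6.81% of the shared sites.

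Most sites gained in the induced list were found in no other line. Of the 16989 sites listed only in induced cells, 11443 (67.4%) overlapped no hotspot of the 6 libraries of the other lines. The same held for 1865 of the 8111 sites (23.0%) listed only in repressed cells, for 111 of the 16557 shared sites, and for 368 of the 5242 sites (7.02%) listed only without tetracycline in the parental line. The 11443 sites were narrow, at a median of 365 bp, and weak, at a median peak density of 9.07. Their density was below 11.9 in 95 of 100 and reached 25.0 at most, and only 30 of them counted as 2-fold higher. Sites listed only in induced cells and found in no other line thus added to the length of the induced list and hardly to the count of higher sites. The number of weak hotspots, the median z-score of the authors (14.1 in induced, 19.4 in repressed cells) and the gaps in the authors' hotspot numbering (14747 numbers missing in induced, 5172 in repressed cells) differed between the lists, and their part in these gains was not tested.

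**Figure D2:**
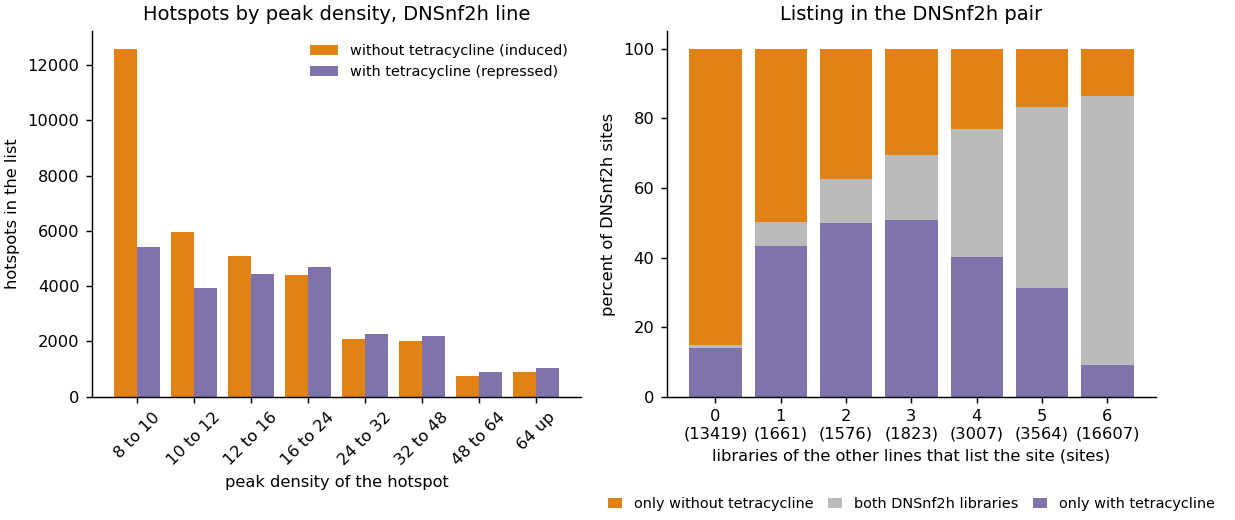
Left, number of hotspots in the induced and repressed DNSnf2h lists by class of peak density (lower limit included); right, percent of DNSnf2h sites listed only without tetracycline, in both libraries or only with it, by how many of the 6 libraries of the other lines list the site, with the number of sites in brackets. The induced list holds 12590 hotspots in the weakest class against 5417 in the repressed list, and sites found in no other library are 85.3% induced-only, while sites found in all 6 are 77.3% shared.

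Strength was read in libraries outside the DNSnf2h comparison. The sites listed in parental cells with tetracycline were split into 4 classes of nearly equal size by peak density there. Sites not listed there were left out. From the weakest class to the strongest, 5.88%, 10.7%, 8.81% and 4.54% were 2-fold lower in induced DNSnf2h cells. The middle of the range, with parental densities of 27.6 to 96.7, thus held the largest shares of lower sites. The share 2-fold higher was 1.79%, 2.47%, 4.17% and 3.88% in the same order. Over the shared sites of each class the median log2 ratio was -0.07, -0.16, -0.06 and 0.17. By this measure of strength, the strongest shared sites were on balance slightly denser in induced cells and the others slightly less dense. Listing followed strength, with 33.3% of the weakest and 95.5% of the strongest class listed in both DNSnf2h libraries.

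Peak density in DNCHD4 cells with tetracycline allowed the same reading of both pairs. The DNSnf2h sites listed there were again split into 4 nearly equal classes. Parental sites listed there were placed by the same density limits (up to 25.6, 49.0 and 94.6, and above). Weakest class first, 1.91%, 8.70%, 9.59% and 6.97% of DNSnf2h sites were 2-fold lower in induced cells, against 0.748%, 4.47%, 4.12% and 1.73% of parental sites without tetracycline. In both lines the middle classes held the largest shares, and in each class the DNSnf2h share exceeded the parental one. The higher direction ran differently, at 2.20%, 2.65%, 4.10% and 2.95% in the DNSnf2h line and 3.53%, 2.29%, 1.59% and 0.736% in the parental line. In the parental line the share of higher sites thus declined with strength, and in the DNSnf2h line it did not.

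Site width gave a different picture depending on where it was measured. By the width of the merged DNSnf2h site, 0.115% of the narrowest of 4 equal classes (252 to 390 bp) and 10.5% of the widest (673 to 7208 bp) were 2-fold lower in induced cells, and 0.134% and 3.62% were 2-fold higher. Only 0.756% of that narrowest class was listed in both libraries, against 93.1% of the widest, so narrow sites were mostly weak sites listed once. By the width of the hotspot in parental cells with tetracycline, the shares 2-fold lower were 6.45%, 10.2%, 8.82% and 4.41%, narrowest to widest. By the width in DNCHD4 cells with tetracycline they were 3.39%, 9.21%, 9.34% and 5.21%, against 1.72%, 3.43%, 3.37% and 1.75% of parental sites within the same width limits (up to 677, 812 and 1085 bp, and above). Among sites with a hotspot in these libraries, widths read outside the DNSnf2h pair thus placed the largest shares at intermediate widths, as strength did.

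**Figure D3:**
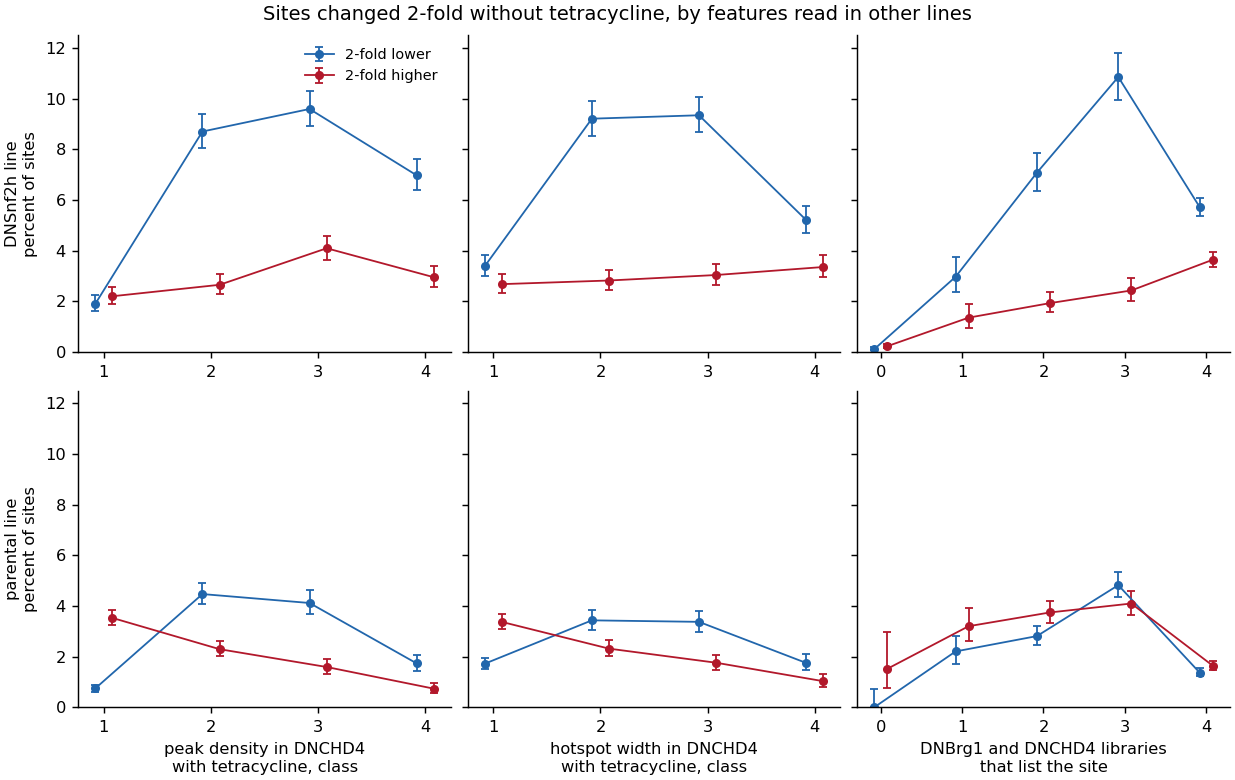
Percent of sites 2-fold lower (blue) and 2-fold higher (red) without tetracycline in the DNSnf2h line (top row) and the parental line (bottom row), by class of peak density in DNCHD4 cells with tetracycline (4 classes, equal in size for DNSnf2h sites and with the same limits for parental sites, 1 weakest), by class of hotspot width there (1 narrowest), and by how many of the 4 DNBrg1 and DNCHD4 libraries list the site. The density and width classes hold only sites listed in DNCHD4 cells with tetracycline. Bars are Wilson 95% intervals, which treat sites as independent draws and cover no spread between libraries. The DNSnf2h lower share peaks at 9.59%, 9.34% and 10.9%, against 4.47%, 3.43% and 4.82% in the parental line.

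The width of a hotspot moved with its density within the pair. At the 1055 shared sites that were 2-fold lower, the median hotspot width was 557 bp in induced and 751 bp in repressed cells, a median ratio of 0.745. At the 421 shared sites that were 2-fold higher it was 718 bp in induced and 542 bp in repressed cells, a ratio of 1.32. Parental sites behaved likewise, with median width ratios of 0.773 at lower and 1.15 at higher sites. A hotspot is bounded where density drops, and the part of that definition in the widths was not tested.

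Shape, the mean over the peak density of a hotspot, sorted the sites little. A low value means a sharp peak over a low flank. From the sharpest to the flattest of 4 equal classes in repressed cells, 7.67%, 8.14%, 7.59% and 6.53% of sites were 2-fold lower in induced cells, and 1.62%, 1.39%, 1.72% and 2.09% were 2-fold higher. With shape taken from parental cells with tetracycline, the shares 2-fold lower were 8.02%, 7.80%, 7.74% and 6.29%. With shape taken from induced cells they were 2.52%, 3.28%, 3.09% and 3.70%. Sites listed only in induced cells cannot be called lower, and they were 59.2% of the sharpest and 46.0% of the flattest of these classes. Over shared sites the lower shares by induced shape were 6.17%, 6.41%, 5.99% and 6.84%. By repressed shape they were 7.63%, 6.86%, 6.21% and 4.84% over shared sites. At shared lower sites the median shape was 0.264 in induced and 0.261 in repressed cells, and at shared higher sites 0.253 and 0.279. Peak density enters both the call and the shape, so these shapes are not independent of the calls.

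Sites in denser neighbourhoods were less often listed in induced cells alone and more often 2-fold lower. By the number of other DNSnf2h sites within 50 kb, 1.82% of 5494 sites with none, 3.58% with 1 to 2, 5.05% with 3 to 5, 6.79% with 6 to 9 and 6.93% of 1010 sites with 10 to 19 were 2-fold lower in induced cells. The parental shares were 1.42%, 1.97%, 2.12%, 2.79% and 3.56%. Induced-only listing ran the other way, at 65.0% of the sites with no neighbour and 22.0% of those with 10 to 19. Among sites listed in both DNSnf2h libraries the lower share was nearly level, at 5.68%, 6.36%, 6.60%, 6.34% and 6.06%. The gradient seen over all sites was thus not seen over the shared sites. In the 140 sites with 20 or more neighbours, 14.3% were 2-fold higher and 8.57% 2-fold lower in induced cells, against 18.8% and 2.08% of the 96 parental sites of that class. Of the 87 shared DNSnf2h sites among the 140, 1.15% were 2-fold lower and 0% 2-fold higher.

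The share of lower sites ranged more widely by listing in the other lines than by shape or neighbourhood. By how many of the 6 libraries of the other lines listed the site, the share 2-fold lower in induced DNSnf2h cells was 0.0894% at none, 0.963% at 1, 3.36% at 2, 6.03% at 3, 8.98% at 4, 11.9% at 5 and 5.78% at all 6. The share 2-fold higher was 0.224% at none and 3.70% at all 6. Of the sites listed in none, 85.3% were listed only in induced cells, where a lower call was not possible. Those listed only in repressed cells had a median density of 8.78, and a lower call by bound needs 16.3. Few sites listed in none could thus be called lower. Over shared sites the lower shares were 0%, 0.870%, 2.01%, 5.64%, 9.46%, 11.1% and 5.61% in the same order. Over all and over shared sites, the lower share was largest at sites that nearly all libraries listed. Counted over the 4 DNBrg1 and DNCHD4 libraries, the lower shares were 0.111%, 2.97%, 7.08%, 10.9% and 5.72% for DNSnf2h sites, against 0%, 2.20%, 2.81%, 4.82% and 1.37% for parental sites.

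Which library lacked the site made a difference. Of the 3564 DNSnf2h sites listed in 5 of the 6 other libraries, 2220 (62.3%) were absent from DNBrg1 cells without tetracycline, in which dominant-negative Brg1 is induced. Of these, 365 (16.4%) were 2-fold lower and 12 (0.541%) 2-fold higher in induced DNSnf2h cells, with a median log2 ratio of -0.40 at the shared ones. Another 984 were absent from DNBrg1 cells with tetracycline, and of these 46 (4.67%) were 2-fold lower and 64 (6.50%) 2-fold higher, with a median of 0.04. The median peak density in repressed DNSnf2h cells was 15.2 and 13.1 in these 2 sets, and its part in the shares was not tested. A lean towards lower density in induced DNSnf2h cells was also seen at the 207 sites absent from parental cells without tetracycline, where 12 (5.80%) were 2-fold lower and 0 2-fold higher, with a median of -0.36. Of the 127 absent from parental cells with tetracycline, 1 was 2-fold lower and 5 were 2-fold higher.

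Sites that were lower in induced DNSnf2h cells were mostly also lower without tetracycline in the other lines, most of all in DNCHD4. At the 1055 shared lower sites the median peak density was 13.7 in induced and 35.3 in repressed DNSnf2h cells. At the 1044 of them listed in both DNCHD4 libraries, the median was 40.1 without and 82.1 with tetracycline in DNCHD4 cells, and the median log2 ratio there was -1.07 (quartiles -1.46 and -0.70). The ratio was below 0 at 1016 (97.3%), and 571 (54.7%) were 2-fold lower in DNCHD4 cells. Over all DNCHD4 sites 10.2% were 2-fold lower and 7.21% 2-fold higher, and over those listed in both DNCHD4 libraries 8.50% and 5.37%.

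In DNBrg1 cells the median log2 ratio at the shared lower sites was -0.56. Of the 721 listed in both DNBrg1 libraries, 219 (30.4%) were 2-fold lower. Over all DNBrg1 sites 9.04% were 2-fold lower and 2.93% 2-fold higher, and over those listed in both DNBrg1 libraries 6.94% and 2.82%. In parental cells the median was -0.43, and 149 of 1019 (14.6%) were 2-fold lower. Over all parental sites 2.31% were 2-fold lower and 2.60% 2-fold higher, and over those listed in both parental libraries 1.83% and 2.08%. The log2 ratio was below 0 at 564 of the 721 sites (78.2%) in DNBrg1 and at 822 of the 1019 (80.7%) in parental cells. Most of the DNSnf2h lower sites listed in both libraries of a line therefore moved in the same direction there. The median was smallest in size in parental cells, whose log2 ratios also varied least over shared sites. Their SD was 0.46, against 0.68 in DNCHD4 and 0.61 in DNBrg1 cells. At the 15081 shared sites under 2-fold in DNSnf2h cells, the shares 2-fold lower were 9.42% in DNCHD4, 8.69% in DNBrg1 and 1.54% in parental cells.

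At the 421 shared higher sites the median log2 ratios in the other lines were smaller in size than at the lower sites. The median peak density of these sites was 26.4 in induced and 11.6 in repressed DNSnf2h cells. The median log2 ratio at these sites was 0.41 in DNCHD4, 0.21 in DNBrg1 and 0.23 in parental cells. In DNCHD4 cells 68 of 420 (16.2%) were 2-fold higher, in DNBrg1 cells 36 of 364 (9.89%), and in parental cells 73 of 408 (17.9%). Over all sites of each line, 7.21% were 2-fold higher in DNCHD4, 2.93% in DNBrg1 and 2.60% in parental cells. Over the sites listed in both libraries of each line the shares were 5.37%, 2.82% and 2.08%. At the 15081 shared sites under 2-fold in DNSnf2h cells they were 1.70%, 4.03% and 2.25%. The share at the DNSnf2h higher sites was thus above each of these backgrounds in each line. In parental cells it also exceeded the 14.6% of DNSnf2h lower sites that were 2-fold lower there.

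**Figure D4:**
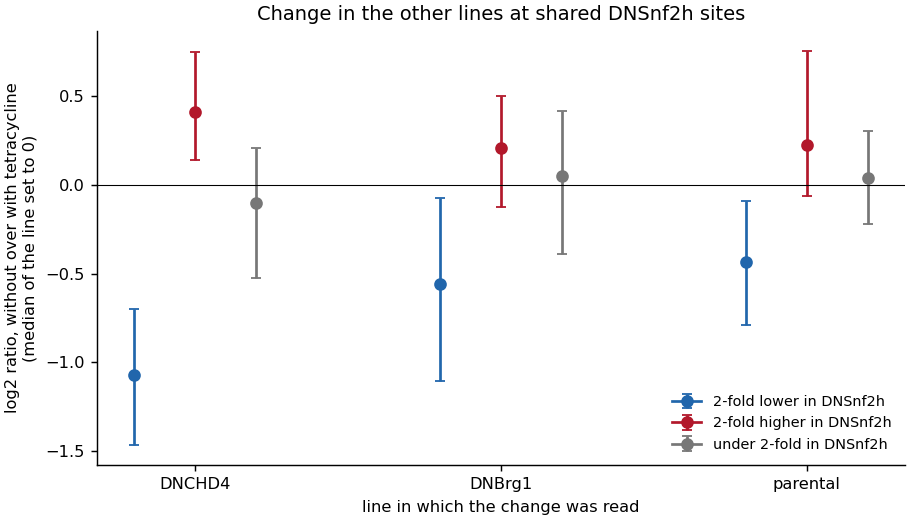
Median log2 ratio, without over with tetracycline and relative to the median of the line, in DNCHD4, DNBrg1 and parental cells at sites that are 2-fold lower (blue), 2-fold higher (red) or under 2-fold (grey) in the DNSnf2h line. Bars span the quartiles over the sites listed in both libraries of the plotted line. The lower sites have medians of -1.07 in DNCHD4, -0.56 in DNBrg1 and -0.43 in parental cells.

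Across the 12831 sites listed in all 8 libraries, the DNSnf2h log2 ratio was closest to that of DNCHD4, with a Spearman correlation of 0.55, against 0.28 with DNBrg1 and 0.23 with the parental line. Among the other pairs of lines the values were 0.44 for DNCHD4 and parental, 0.49 for DNBrg1 and parental and 0.45 for DNCHD4 and DNBrg1. Pearson correlations were 0.57, 0.31 and 0.30 for DNSnf2h with DNCHD4, DNBrg1 and the parental line. Each line had its own pair of libraries. The points are sites, which share base composition and local density, so the values describe these libraries.

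Some of the sites differed in parental cells too. Of the 365 shared sites that were 2-fold lower without tetracycline in parental cells, 149 (40.8%) were 2-fold lower and 0 were 2-fold higher in induced DNSnf2h cells. Of the 391 that were 2-fold higher in parental cells, 73 (18.7%) were 2-fold higher and 2 (0.512%) 2-fold lower in induced DNSnf2h cells. Where the parental log2 ratio was within 0.25 of 0, 283 of 7184 sites (3.94%) were 2-fold lower and 168 (2.34%) 2-fold higher. Subtracting the parental log2 ratio from the DNSnf2h one over 15498 sites left 1062 (6.85%) lower by 2-fold or more and 544 (3.51%) higher by 2-fold or more, so lower sites remained the more numerous.

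The log2 ratios of neighbouring sites were most alike at short range. For adjacent shared sites up to 2 kb apart, the Pearson correlation of the log2 ratios was 0.26 over 1165 pairs in the DNSnf2h line, and it was 0.19, 0.12 and 0.08 at 2 to 10, 10 to 50 and 50 to 200 kb. Parental values were 0.21, 0.12, 0.09 and 0.06. When a site was 2-fold lower in induced cells, the next site 2 to 10 kb away was lower as well in 28 of 190 cases (14.7%), where 7.38% of all such next sites were lower. For higher sites it was 3 of 29 (10.3%) up to 2 kb apart, where 1.80% of next sites were higher. It was 0 of 46 at 2 to 10 kb, where 2.00% were, and 1 of 127 (0.787%) at 10 to 50 kb, where 2.30% were. For parental higher sites it was 15.1% up to 2 kb, 5.67% at 2 to 10 kb and 7.76% at 10 to 50 kb. Of all such parental next sites 1.77%, 1.87% and 2.06% were higher. For DNSnf2h lower sites at 50 to 200 kb the figures were 7.02% and 6.24%, close to each other.

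The single sites with the lowest ratios had peak densities of 47.2 to 130 in repressed and 9.47 to 23.6 in induced cells. A shared site cannot lie below the induced cutoff of 8.06, so the choice by ratio itself requires a high repressed density. On chr5:127018091-127019209 the peak density was 9.47 in induced and 63.1 in repressed DNSnf2h cells, or 47 and 338 tags, which is 6.66-fold lower (exact 95% interval on tags 4.90 to 9.25). The hotspot there spanned 336 bp in induced and 1002 bp in repressed cells. The same site had densities of 38.0 without and 103 with tetracycline in DNCHD4 cells, 21.4 and 48.0 in DNBrg1 cells and 26.5 and 72.9 in parental cells. It was thus less dense without tetracycline in all 4 lines, with log2 ratios of -2.72 in DNSnf2h, -1.47 in DNCHD4, -0.52 in DNBrg1 and -1.06 in parental cells.

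The site on chr3:83543832-83544811 had a density of 23.6 in induced and 130 in repressed DNSnf2h cells, 5.51-fold lower (4.53 to 6.76). It had no other DNSnf2h site within 50 kb and was listed in neither DNBrg1 library. In DNCHD4 cells it had 33.3 without and 255 with tetracycline, and in parental cells 27.0 and 153, so here the parental log2 ratio of -2.10 was nearly that of DNSnf2h, -2.45. Sites on chr10:74897032-74897779 (12.3 in induced, 63.3 in repressed), chr2:30868916-30869743 (10.5 and 53.2), chr13:63872146-63872976 (15.7 and 71.1) and chr14:45944966-45945639 (10.5 and 47.2) were 5.15-, 5.08-, 4.53- and 4.51-fold lower. All 6 sites had a log2 ratio of -0.83 or below in parental cells and of -1.06 or below in DNCHD4 cells.

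The sites with the highest ratios were mostly high without tetracycline in parental cells too. On chr11:35761592-35762509 the peak density was 52.4 in induced and 8.03 in repressed DNSnf2h cells, 6.53-fold higher (4.71 to 9.23), and the repressed value was the lowest of its list. The DNCHD4 densities were 197 without and 20.9 with tetracycline and the parental ones 98.9 and 14.3, which gave log2 ratios of 2.72 in DNSnf2h, 3.20 in DNCHD4 and 3.20 in parental cells. The second, chr17:46081835-46082530, had 46.6 in induced and 10.8 in repressed cells and log2 ratios of 2.12 in DNSnf2h and 1.61 in parental cells. The fourth, chr16:85950410-85951235, had 54.6 in induced and 14.0 in repressed cells, with 1.98 in DNSnf2h and 2.41 in parental cells.

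The other 3 departed more from the parental line. They were chr19:16942801-16943539 (37.3 in induced, 8.78 in repressed), chr17:36367978-36368728 (74.4 and 21.3) and chr7:39002338-39002968 (41.7 and 12.3). Their log2 ratios were 2.10, 1.82 and 1.77 in DNSnf2h and 1.05, 0.51 and 0.95 in parental cells. On all 6 the parental ratio was above 0, and none of the 6 was lower in DNCHD4 cells without tetracycline.

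Other sites differed in DNSnf2h cells while the parental ratio stayed within 0.25 of its median on the log2 scale. The lowest DNSnf2h ratio among them was on chr10:43798538-43799457, with 13.7 in induced and 57.5 in repressed DNSnf2h cells, 4.20-fold lower (3.22 to 5.54). Parental cells had 33.2 without and 47.4 with tetracycline there, a log2 ratio of -0.11 from the parental median, and the ratio was -0.66 in DNCHD4 and 0.35 in DNBrg1 cells. The next were chr12:80699285-80699982 (9.67 in induced, 34.2 in repressed), chr4:54368238-54369659 (35.7 and 125) and chr5:51124479-51125396 (8.26 and 28.8), at 3.53-, 3.50- and 3.48-fold lower. All 4 had a log2 ratio below 0 in DNCHD4 cells, the lowest being -1.36 at the site on chromosome 5, and the site on chromosome 4 had 0.90 in DNBrg1 cells.

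The highest ratio over a flat parental ratio was on chr11:3548824-3549492, with 36.1 in induced and 11.2 in repressed DNSnf2h cells, 3.22-fold higher (2.39 to 4.39). Its log2 ratio was 1.70 in DNSnf2h, 0.65 in DNCHD4, 0.65 in DNBrg1 and 0.02 in parental cells. Sites on chr15:97662355-97663223 (31.8 in induced, 10.1 in repressed), chr3:97461909-97462494 (31.6 and 10.3) and chr13:91600080-91601040 (30.2 and 10.6) were 3.16-, 3.08- and 2.84-fold higher. Their log2 ratios in DNCHD4 cells were 0.20, 0.02 and 0.40, so these higher sites had little counterpart in the line that resembled DNSnf2h most at the lower sites.

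**Figure D5:**
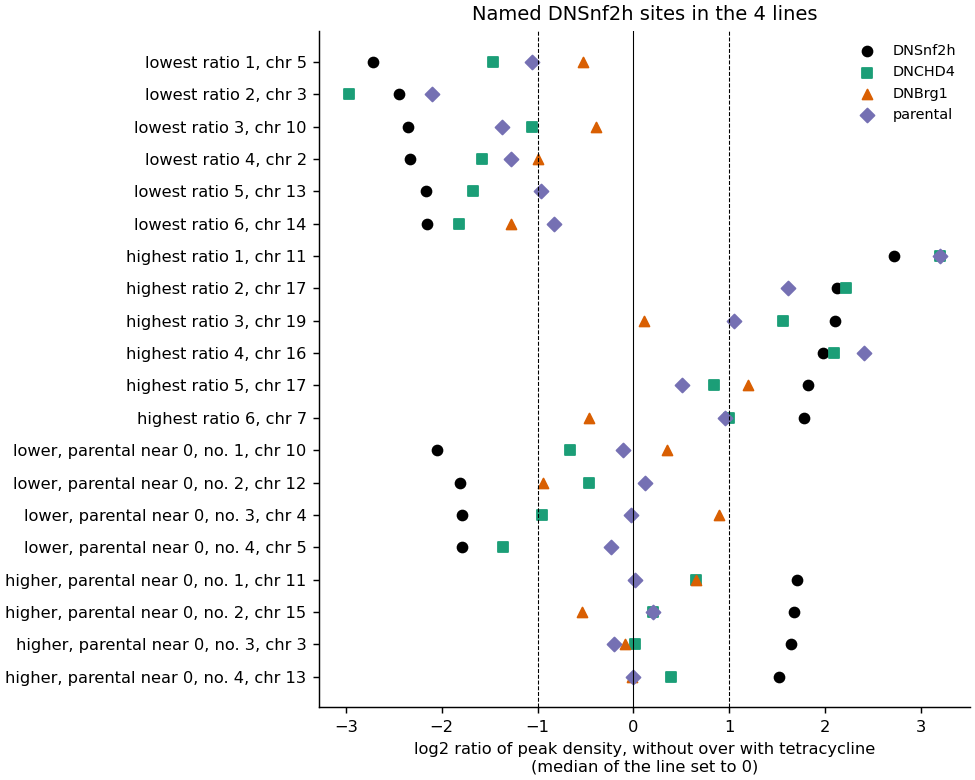
Log2 ratio of peak density, without over with tetracycline and relative to the median of each line, in the DNSnf2h, DNCHD4, DNBrg1 and parental lines for the 6 lowest and 6 highest DNSnf2h sites and for the 4 lowest and 4 highest with a parental log2 ratio within 0.25 of 0. Dashed lines mark 2-fold, and a missing symbol means that a library of that line does not list the site. The 6 lowest sites run between -2.72 and -2.16 in DNSnf2h cells, and their parental symbols all lie below 0.

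Of the sites listed only in repressed DNSnf2h cells with an induced hotspot within 50 kb, the densest was chr5:136570142-136571120 at 44.4, followed by chr3:34411215-34412231 at 42.8 and chr10:85639048-85639769 at 41.3. Against the lowest density of the whole induced list they were at least 5.51-, 5.30- and 5.12-fold lower in induced cells. Against the lowest induced hotspot within 50 kb the bounds were 2.79, 1.33 and 2.53. All 3 were missing from the induced DNBrg1 list as well and present in the repressed DNBrg1 list, and their log2 ratios in parental cells were -1.41, -1.74 and -1.23.

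Among sites listed only in induced DNSnf2h cells with a repressed hotspot within 50 kb, the densest was chr3:37941350-37942093 at 41.5, then chr4:88658683-88659329 at 37.3 and chr16:16911929-16912690 at 34.3. Their bounds against the lowest density of the repressed list were at least 5.17-, 4.64- and 4.27-fold higher, and 3.59, 2.85 and 1.23 against the lowest repressed hotspot within 50 kb. Their parental log2 ratios were 2.02, 1.85 and 0.67, so the first and second were 2-fold higher without tetracycline in parental cells too. None of the 6 once-listed sites was a site found in the DNSnf2h line alone.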

How the data were processed

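DNase-seq libraries of the 4 lines, each without and with tetracycline, were taken from 8 hotspot lists, with groups from the submitters' labels and 1 library per group. The submitters' processing notes name CASAVA 1.6 and build mm9. Nothing is said there of the hotspot caller, which was not given in the sources used here. Deposited densities, highest and mean per hotspot, are per the file headers a coverage signal scaled by the authors with a factor of each library. A score of enrichment (z-score) was computed by the authors for each hotspot, per the file headers. The p-value of each hotspot, also computed by the authors, was deposited beside it and not used for calls.

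Hotspots of the lists of a line were merged at an overlap of at least 1 bp, and all peak densities were whole multiples of the density of 1 tag within 0.05 tags, which turned density into tags. Depth in reads is unknown. Folds of single sites are of the deposited densities, with exact Clopper-Pearson 95% intervals on tags, and shares carry Wilson intervals. The Clopper-Pearson intervals cover counting error of tags only. The Wilson intervals treat sites as independent draws, and neither kind covers a spread between libraries. Log2 ratios are relative to the median of the line, and a site was called at 2-fold. The named sites are the 6 lowest and 6 highest ratios among shared sites with under 20 sites within 50 kb, the 4 lowest and 4 highest with a parental log2 ratio within 0.25 of 0, and the 3 densest once-listed sites on each side with a hotspot of the other list within 50 kb. The sites, classes and rules were chosen with earlier results of these data known. Gene annotation and genome sequence of build mm9 were not used here. Calling was tested on simulated data. Python 3.11.15 was used with scipy 1.17.1, pandas 2.3.3 and numpy 2.4.6, and plots were made in matplotlib 3.10.9.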

Additional observations from a re-analysis of the deposited data

Results flagged for a closer look

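At 2 shared sites the DNSnf2h and parental lines were 2-fold apart from their medians in opposite directions, and this difference between lines was not tested. They were singled out after their values were seen. On chr4:80704027-80704627 the peak density was 14.3 in induced and 29.3 in repressed DNSnf2h cells, a log2 ratio of -1.02, and 42.5 without and 26.7 with tetracycline in parental cells, a log2 ratio of 1.07. On chr18:70857281-70857999 it was 9.27 in induced and 24.5 in repressed DNSnf2h cells, a log2 ratio of -1.38, and 53.8 without and 31.3 with tetracycline in parental cells, a log2 ratio of 1.18.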

How the results depend on the processing

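No paired analysis was possible because each group has 1 library, and no library could be left out for the same reason. Lower sites outnumbered higher ones in 13 of 15 settings. With the sites listed in both libraries alone the counts were 1055 lower and 421 higher, at 1.5-fold 5153 and 4285, at 3-fold 269 and 48, and with list cutoffs of 2 times the common one 615 and 136. With the bound taken from the lowest density within 50 kb, 1389 sites were lower and 550 higher. Higher sites outnumbered lower ones with mean density (9306 lower, 17307 higher) and with mean density times width (10459 lower, 18396 higher), measures on which the lists have no cutoff, so that nearly every once-listed site was called. Over shared sites alone, an alternative chosen after seeing the data, mean density gave 1195 lower and 578 higher, and mean density times width 2348 and 1603. The difference in the lower share between the last and first class, in percentage points, was 10.4 by site width, but -2.03 by parental hotspot width and 8.54 over shared sites. It was -1.34 by parental strength, but 5.07 by DNCHD4 strength and -0.43 over shared sites. By shape in repressed cells it was -1.14, but -2.79 over shared sites. Between sites with 10 to 19 neighbours and with none it was 5.11, but 0.38 over shared sites. The cause of these shifts was not tested. At 68.5% of sites both values lay under about 2 times the list cutoffs, so no 2-fold difference could be called there.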
